A study of Mus musculus with 2 samples.

Results

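The genes described are 7 enzymes by which activated immune cells change small metabolites, namely Acod1, Nos2, Arg1, Arg2, Il4i1, Sod2 and Ch25h, out of 28482 genes in the count table. The set was picked by the measured values of Acod1 and Il4i1 across cell classes of the same data. The levels and differences of these 2 genes are therefore given as descriptions with no test, and tests are reported for the other 5 genes. Single CD45+ cells, a surface marker shared by leukocytes and microglia, came from the spinal cords of C57BL/6 mice that were 15 days into experimental autoimmune encephalomyelitis (EAE), an induced inflammation in which immune cells attack myelin in brain and spinal cord. All 4 mice had EAE. Of these, 2 received no inhibitor (untreated replicates 1 and 2) and 2 received an inhibitor (inhibitor replicates 1 and 2), and the sources used here do not give its name, target or dose. The series title also names STAP-1 mice, but no label of the 4 mice gives that genotype. The hashtagged cells were pooled on 1 BD Rhapsody run and amplified by the TAS-Seq protocol, so the mice shared a library.

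Acod1 (aconitate decarboxylase) makes itaconate from an intermediate of the tricarboxylic acid cycle. Nos2, the inducible nitric oxide synthase, and the arginases Arg1 (cytosolic) and Arg2 (mitochondrial) compete for arginine, which the first turns into nitric oxide and citrulline and the others into ornithine and urea. Il4i1 is a secreted oxidase of aromatic amino acids, Sod2 is the mitochondrial manganese superoxide dismutase, and Ch25h makes 25-hydroxycholesterol. Most of these genes are known from macrophages and dendritic cells, where bacterial products, interferons or type 2 cytokines switch them on.

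In GRCm38 the genes lie at chr14:103046977-103056573 (Acod1, plus strand), chr11:78920787-78960254 (Nos2, plus strand), chr10:24915221-24927484 (Arg1, minus strand), chr12:79130777-79156301 (Arg2, plus strand), chr7:44816387-44840809 (Il4i1, plus strand), chr17:13006846-13040063 (Sod2, plus strand) and chr19:34473778-34475164 (Ch25h, minus strand). With strand use in counting not given in the sources used here, overlapping genes matter on either strand. Il4i1 shares chr7:44816387-44830812 with Nup62 on the same strand, and on the opposite strand it overlaps Atf5 at one end and Tbc1d17 at the other. Arg2 overlaps Gm48780 and Vti1b, and Ch25h overlaps Gm26902, in each case on the opposite strand. The counts of these 3 members are uncertain to that extent. RefSeq promoters (GRCm38.p6, 250 bases before to 50 after the start) were found for 4 of the 7 genes. Those found are shown, and they were searched on both strands for 4 short motifs of 9 letters: GGGANTTTC and GGGANTTCC (kappa B type), TTCNNNGAA (gamma-activated site type, the type bound by STAT factors) and TGACNNNGC (antioxidant response type). The 4 windows are chr14:103046762-103047061 (Acod1, plus strand), chr7:44836038-44836337 (Il4i1, plus strand), chr17:13007589-13007888 (Sod2, plus strand) and chr19:34475099-34475398 (Ch25h, minus strand), and capitals mark a motif.
Acod1: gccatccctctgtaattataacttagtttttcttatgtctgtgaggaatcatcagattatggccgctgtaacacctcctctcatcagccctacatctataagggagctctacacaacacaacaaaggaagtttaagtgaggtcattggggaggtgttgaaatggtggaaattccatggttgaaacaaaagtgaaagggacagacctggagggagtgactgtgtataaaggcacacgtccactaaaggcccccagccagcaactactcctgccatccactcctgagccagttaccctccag
Il4i1: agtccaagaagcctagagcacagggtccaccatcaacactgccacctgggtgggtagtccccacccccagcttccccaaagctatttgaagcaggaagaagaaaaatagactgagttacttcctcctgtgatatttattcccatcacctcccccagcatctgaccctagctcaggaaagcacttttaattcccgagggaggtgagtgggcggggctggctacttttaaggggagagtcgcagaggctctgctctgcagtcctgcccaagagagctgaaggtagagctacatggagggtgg
Sod2: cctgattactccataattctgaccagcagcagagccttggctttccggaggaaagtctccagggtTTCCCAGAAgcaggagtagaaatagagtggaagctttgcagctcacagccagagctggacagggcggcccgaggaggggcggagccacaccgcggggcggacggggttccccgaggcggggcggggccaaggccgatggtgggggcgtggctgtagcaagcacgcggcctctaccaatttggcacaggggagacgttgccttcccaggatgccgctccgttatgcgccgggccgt
Ch25h: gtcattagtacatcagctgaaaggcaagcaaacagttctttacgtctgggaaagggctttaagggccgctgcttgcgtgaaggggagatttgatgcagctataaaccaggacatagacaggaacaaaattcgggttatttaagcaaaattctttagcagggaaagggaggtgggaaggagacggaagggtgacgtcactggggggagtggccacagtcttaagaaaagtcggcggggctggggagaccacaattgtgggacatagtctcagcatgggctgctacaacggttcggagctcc
The 1 match was in the Sod2 window, where TTCCCAGAA lies 185 bases before the start (bases 66 to 74 of the window). The motif TTCNNNGAA reads the same on both strands, so this match has no direction. TTCNNNGAA was present in 8.30% of 32851 promoters of this length, GGGANTTTC in 1.11%, GGGANTTCC in 1.68% and TGACNNNGC in 12.4%. A match is a description of letters and not a bound site, and windows with no match lack only these letters.

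After filtering, 19256 cells were kept. The untreated mice gave 4325 and 4553 of them and the inhibitor-treated mice 5463 and 4915, with 49559497 to 62102801 counts per mouse and a median of 8250 to 8613 counts per cell. No cell barcode was shared between mice. Ptprc, the gene of CD45, was at 610.0 to 660.1 CPM in the 4 mice, and 79.9% of kept cells held a count of it. Every named class carried it, with the lowest level in progenitors (59.5 to 117 CPM) and the lowest share in B lineage cells (52.2%). They formed 25 clusters, of which 22 could be named from marker genes and 3 could not. Class names stand for cells that resemble the class in these markers. Inhibitor replicate 1 stood apart in composition, since neutrophils made up 62.6% of its cells against 24.3% and 19.1% in the untreated mice and 37.4% in inhibitor replicate 2. T cells made up 17.4% of its cells against 34.9% to 50.2% in the other mice. Each level is in counts per 1000000 (CPM) of the summed counts of a class in a mouse, and values are given in the order of replicates 1 and 2. A log2 fold is inhibitor-treated over untreated with its standard error (SE), from edgeR's quasi-likelihood fit over all genes of a class. The p-values were adjusted by Benjamini-Hochberg over every gene of that fit. The SE was computed back from the fold and the F statistic of the same fit. For Acod1 and Il4i1, whose values chose the set, a fold and its SE are therefore no evidence of a difference. With 2 mice a group, an exact permutation test of a single value cannot go below p = 0.333, so values that do not overlap between groups are given as such. Levels are not compared between genes.

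**Figure D1:**
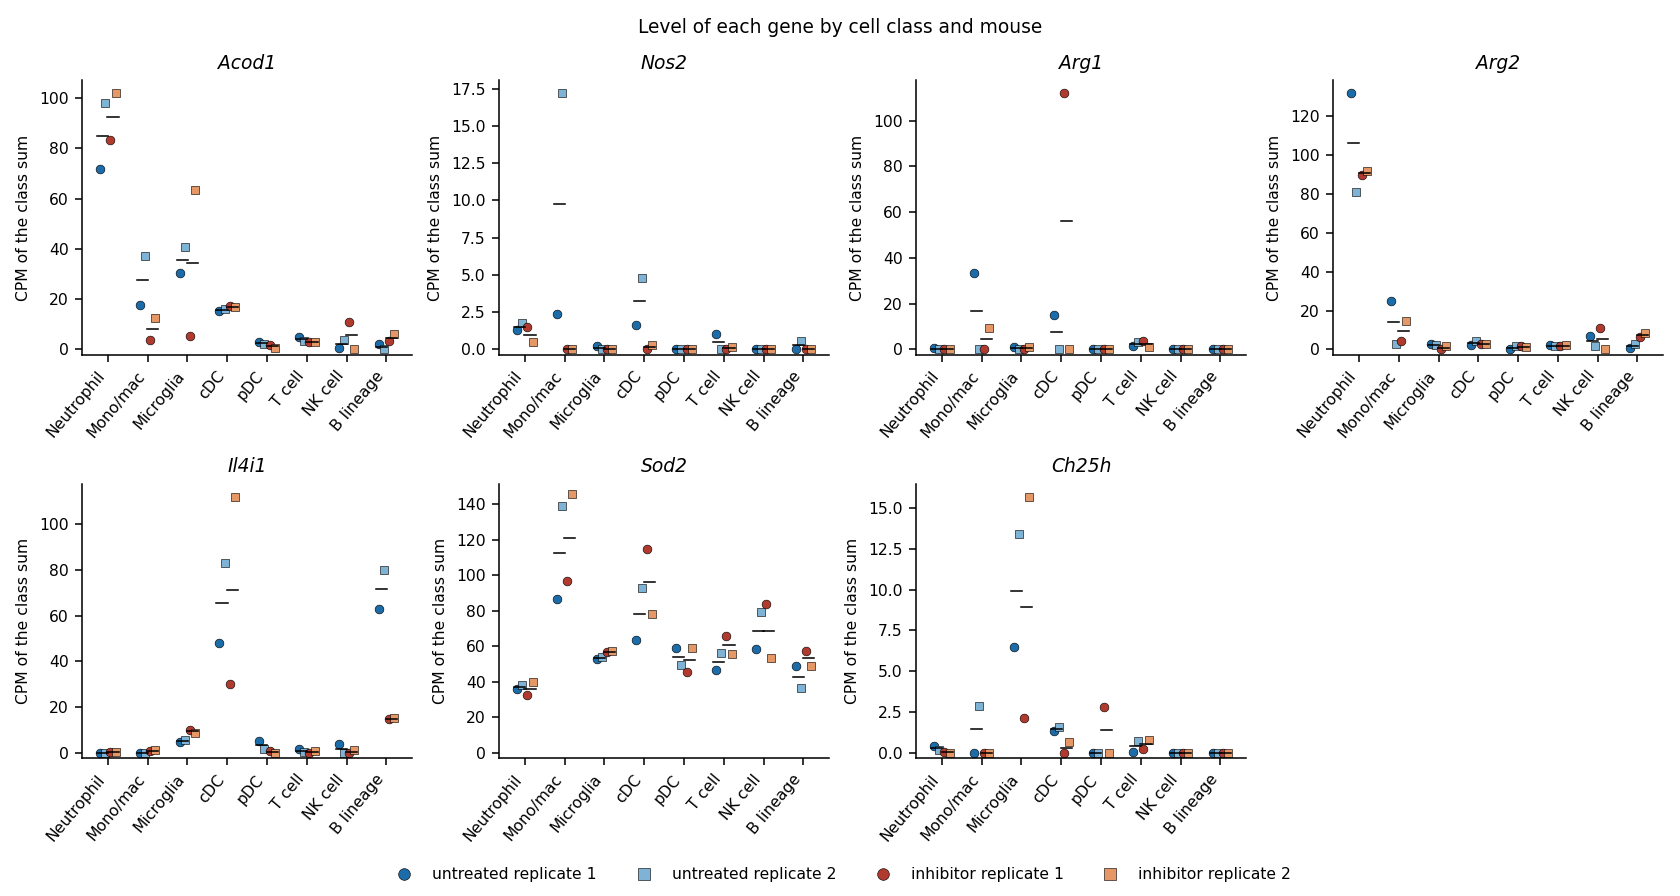
Level of each of the 7 genes (vertical axis, CPM of the class sum) in 8 cell classes (horizontal axis). Each point is a mouse and each bar the mean of the 2 mice of a group. Cells called likely doublets were left out. Among the cells shown, Acod1 and Arg2 were highest in neutrophils, Il4i1 in conventional dendritic and B lineage cells and Ch25h in microglia, while Sod2 was present in every class.

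Among the cells left after removal of likely doublets, Acod1 was chiefly a neutrophil transcript in these spinal cords. The 145 likely doublets that clustered with monocytes or macrophages when kept had 309.7 CPM, above the neutrophils of each mouse. Neutrophils of the untreated mice held 71.9 and 98.0 CPM and those of the inhibitor-treated mice 83.2 and 102 CPM, or 88.8 ± 13.9 (SD, n = 4). The 2 groups overlapped, and the log2 fold within neutrophils was 0.10 ± 0.18 (SE). Neutrophils held 65.6% and 79.0% of all Acod1 counts of the untreated mice and 96.4% and 80.2% of those of the treated mice. After every cell was thinned to 2000 counts, 11.9% of neutrophils held an Acod1 count (21.5% unthinned, median 8944 counts per cell). The same share was 0% in plasmacytoid dendritic cells (2.00% unthinned, median 11755 counts) and 0.599% in T cells (1.68% unthinned, median 7210 counts). Whether the counts in these classes came from free RNA was not tested.

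Microglia, the resident macrophages of the spinal cord, came next among the named classes at 35.0 ± 24.1 CPM (SD, n = 4). The untreated mice had 30.6 and 40.7 CPM, and the treated mice had 5.24 and 63.4 CPM. The treated mice thus held both the lowest and the highest value, and the log2 fold was -0.04 ± 0.74. Summed neutrophil markers in microglia were 5790, 1527, 1833 and 2373 CPM in the 4 mice, and summed T cell markers were 1614, 3616, 342 and 814 CPM, with 0 to 2 of the 23 neutrophil markers and 0 of the 15 T cell markers at 0 in a mouse. Their part in the Acod1 values was not tested. In the 554 microglia without a count of a T cell receptor complex gene, Acod1 was 18.6 and 67.2 CPM untreated and 4.14 and 30.6 CPM treated, and the log2 fold was -1.22 ± 0.85.

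Lower levels followed in erythroid cells at 18.7 ± 11.8 CPM, monocytes or macrophages at 17.9 ± 14.2 CPM and conventional dendritic cells at 16.3 ± 0.823 CPM (SD, n = 4 each). Monocytes or macrophages had 17.8 and 37.3 CPM untreated against 3.72 and 12.6 CPM treated, so the treated mice lay below the untreated mice, with a log2 fold of -1.79 ± 0.90. This rested on 58 counts, and the number of cells behind them ran the other way. The untreated values came from 2 and 1 cells with a count, of 104 and 48 (26 counts in the 1 cell), and the treated values from 4 and 7 cells, of 95 and 112. Summed neutrophil markers in this class were 4498 and 6693 CPM untreated and 9886 and 14374 CPM treated, with 0 to 3 of 23 at 0 in a mouse, and their part was not tested. The neutrophil marker list shares Chil3 with that of monocytes or macrophages. Conventional dendritic cells varied little, at 15.4 and 15.9 CPM against 17.1 and 16.9 CPM. With likely doublets kept they varied more, at 1.64 and 4.95 CPM against 3.06 and 15.1 CPM, and the log2 fold went from 0.09 to 1.53 ± 0.93. NK cells, T cells, B lineage cells, plasmacytoid dendritic cells and progenitors all averaged 3.80 CPM or less. The range of neutrophils did not overlap that of microglia, and among the other named classes each range overlapped the next from microglia down to conventional dendritic cells, which lay above NK cells. Unnamed cluster 23, 85 cells that were led by the myelin genes Mobp and Mbp and also carried neutrophil markers, had 27.2 to 146 CPM.

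Among neutrophils the level of Acod1 differed between clusters in every mouse (clusters were built without the 7 genes). The cluster led by Fcnb and Ms4a3, genes of early neutrophil granules, had 0.668 and 12.3 CPM untreated and 3.84 and 0.672 CPM treated. The cluster led by Camp and Ltf, genes of later granules, had 12.6 to 19.9 CPM. The Mmp8 cluster had 46.3 and 97.7 CPM untreated and 44.8 and 106 CPM treated, and the Stfa2 cluster 84.4 to 114 CPM.

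The cluster led by Il1b, which encodes interleukin 1 beta, reached 189 and 312 CPM untreated, with 252 and 280.5 CPM treated. It stood above the 4 clusters before it in each of the 4 mice. A small cluster of 79 cells, led by the interferon-induced genes Ifit3b, Ifit3 and Rsad2, had 221 and 221 CPM untreated and 474 and 524 CPM treated. The groups did not overlap there, but the cluster held 21, 8, 30 and 20 cells of the 4 mice and was below the 30 cells per mouse set for a fit. Within the larger clusters the log2 fold was 0.03 ± 0.23 (Il1b), 0.01 ± 0.42 (Mmp8), 0.12 ± 0.32 (Camp), -0.23 ± 0.24 (Stfa2) and -1.60 ± 1.07 (Fcnb).

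**Figure D2:**
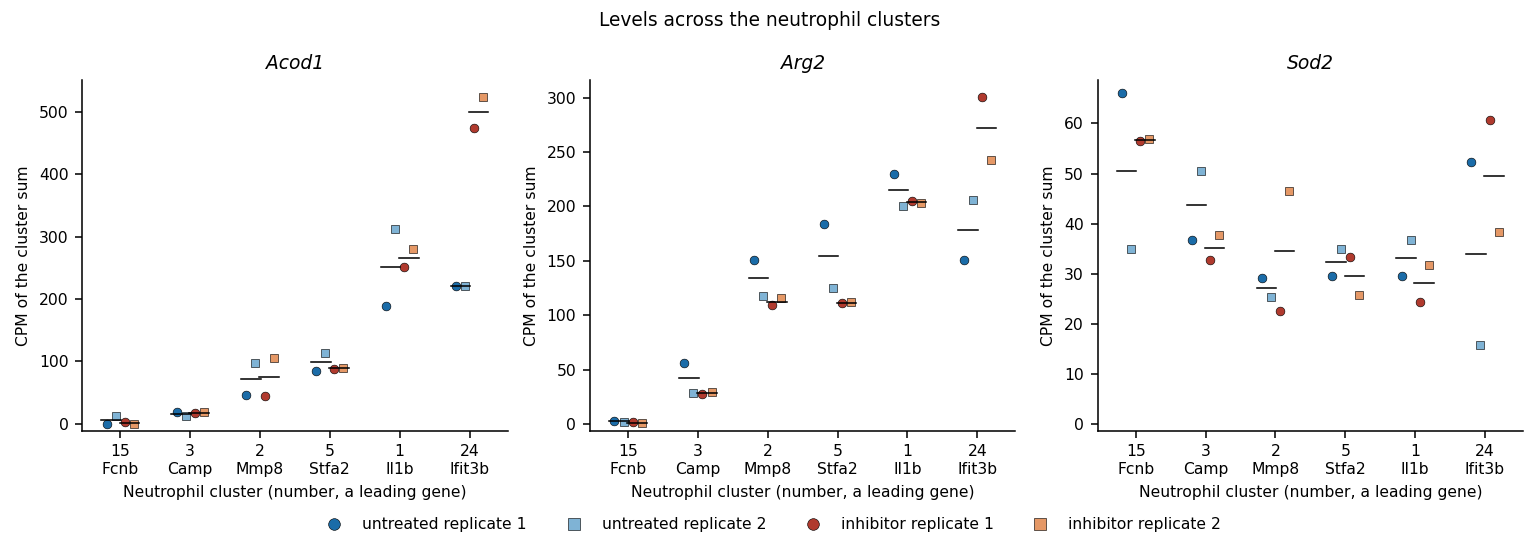
Acod1, Arg2 and Sod2 (vertical axes, CPM of the cluster sum) in the 6 neutrophil clusters, each marked by its number and a leading gene. Points are mice and bars the means of the 2 mice of a group. Acod1 went from 0.668 to 12.3 CPM in the Fcnb cluster to 189 to 312 CPM in the Il1b cluster, Arg2 from 0.672 to 2.67 CPM to 200.2 to 230.1 CPM, and Sod2 had no such order, with 15.8 to 66.1 CPM over the 6 clusters.

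Summed over all kept cells, Acod1 was 25.6 and 29.9 CPM without the inhibitor against 55.9 and 46.5 CPM with it. The groups did not overlap, and the log2 fold was 1.10 ± 0.22, or 0.88 with plain CPM scaling. In such a sum, more cells of a class and more RNA per cell cannot be told apart. Every mouse was then given the mean class shares of the untreated mice, taken as shares of counts and not of cells. The values became 24.4 and 31.7 CPM untreated and 23.6 and 35.4 CPM treated. The groups then overlapped, and the log2 difference of the means was 0.07, or 0.34 without inhibitor replicate 1.

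**Figure D3:**
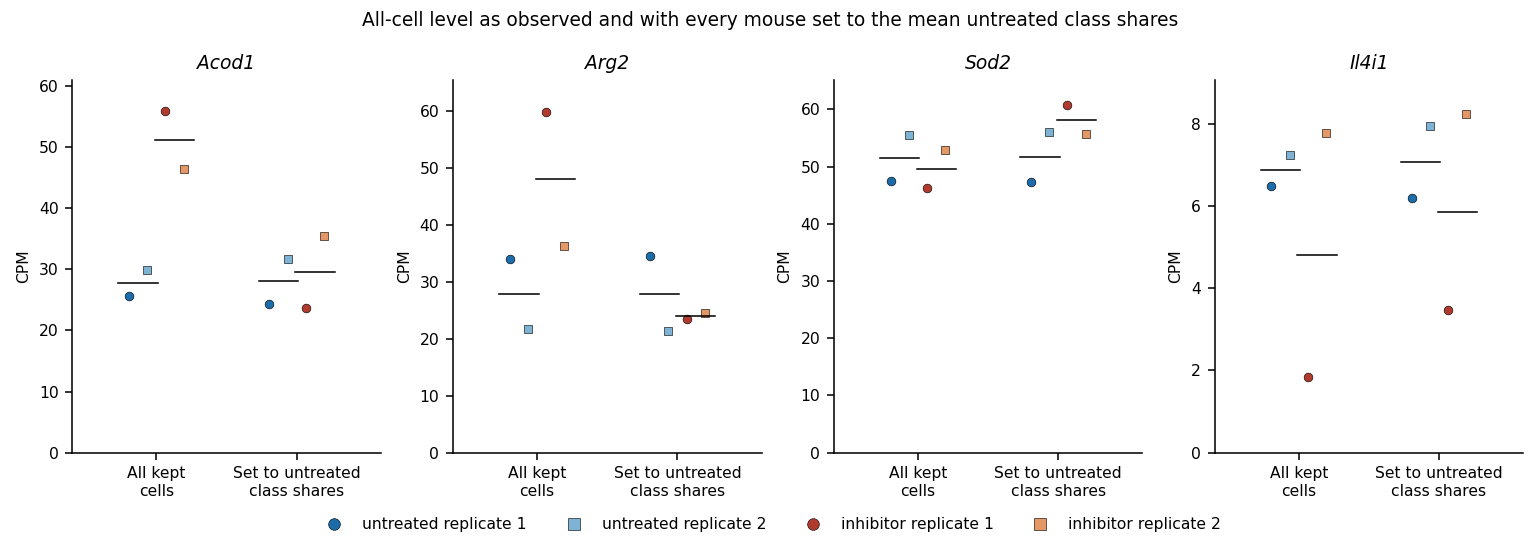
Level of Acod1, Arg2, Sod2 and Il4i1 over all kept cells (vertical axes, CPM) as observed and with every mouse set to the mean untreated class shares of counts. Points are mice and bars group means. Acod1 and Arg2 were higher in both treated mice as observed, and the groups overlapped once class shares were equal.

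Arg2, the mitochondrial arginase, was a neutrophil transcript as well. Its level there was 132 and 80.9 CPM untreated and 89.8 and 92.0 CPM treated, or 98.6 ± 22.6 (SD, n = 4). Both treated mice lay between the untreated mice, and the log2 fold was -0.25 ± 0.20 (edgeR adjusted p = 0.992). Leaving out untreated replicate 2 gave -0.54 ± 0.10 (edgeR adjusted p = 0.00963) in a fit where 0.445% of all genes were called, and leaving out untreated replicate 1 turned the fold to 0.13. Neutrophils held 90.1% to 97.4% of all Arg2 counts in each mouse. Erythroid cells averaged 13.6 CPM, monocytes or macrophages 11.7 ± 10.2 CPM, and NK cells 4.90 ± 5.01 CPM (SD, n = 4). Every remaining named class averaged 4.58 CPM or less, and each range overlapped the next in order. The range of neutrophils did not overlap that of erythroid cells, the next named class. Unnamed cluster 23 had 92.1 to 272 CPM, which overlapped the range of neutrophils.

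Across neutrophil clusters Arg2 followed much the same order as Acod1. It was 0.672 to 2.67 CPM in the Fcnb cluster and 27.7 to 55.9 CPM in the Camp cluster. The Mmp8 cluster had 109 to 151 CPM and the Stfa2 cluster 111 to 184 CPM. The Il1b cluster had 230.1 and 200.2 CPM untreated and 205 and 203 CPM treated. In each of the first 4 of these clusters, the lowest of the 4 mice was a treated mouse. The fold in the Stfa2 cluster was -0.53 ± 0.20 (unadjusted p = 0.0276, edgeR adjusted p = 0.997) and in the Il1b cluster -0.13 ± 0.14 (edgeR adjusted p = 0.972). In the interferon-gene cluster Arg2 was 151 and 206 CPM untreated and 301 and 243 CPM treated.

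Both genes were also read in the same single cells. In the Il1b cluster, with cells thinned to 2000 counts, Acod1 was detected in 23.0% and 34.5% of the Arg2-positive cells of the untreated mice and in 21.5% and 28.1% of those of the treated mice. In the cells without Arg2 the shares were 22.8% and 25.5% untreated and 20.4% and 23.7% treated. The Arg2-positive cells that also held Acod1 were 17 of 74 and 20 of 58 untreated and 53 of 246 and 36 of 128 treated. The share beside Arg2 was the higher in 4 of 4 mice, but the 2 shares were close in replicate 1 of each group. They differed most in untreated replicate 2, and the difference was not tested. Over 60 sums (15 classes and subtypes in 4 mice, which share libraries and differ in depth) the levels of Acod1 and Arg2 had a Pearson r of 0.71 on the scale log2(CPM + 10). The genes most like Acod1 by this measure were Ptgs2 (the inducible cyclooxygenase), Acvrl1 and Slc31a2, each with r = 0.87. Those most like Arg2 were Hdc (histidine decarboxylase), Cd177 (a neutrophil surface protein) and Gm20406, each with r = 0.92. Each of these 6 genes was highest in neutrophils.

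Summed over every class, Arg2 was 33.9 and 21.6 CPM untreated and 59.7 and 36.3 CPM treated. The treated mice lay above the untreated mice, and the log2 fold of 1.03 ± 0.36 did not pass the test (unadjusted p = 0.0310, edgeR adjusted p = 0.489). In this comparison 0% of 21131 genes were called at an adjusted p under 0.05, while 2082 had an unadjusted p under 0.05, and 453 were called by DESeq2. Without inhibitor replicate 2, the fold was 1.44 ± 0.26 (edgeR adjusted p = 0.0412) in a fit where 7.34% of all genes were called. With equal class shares the values were 34.4 and 21.4 CPM against 23.4 and 24.4 CPM, a log2 difference of -0.22.

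Arg1 and Nos2, which mark opposite uses of arginine in macrophages, were rare in the kept cells. Arg1 had 374 counts in 26 cells. It stood first of the 44 genes at the top of the table that had no nonzero count under 4, so a value of 0 is given as listed at 0. In conventional dendritic cells it was 15.0 CPM and listed at 0 in the untreated mice, and 112 CPM and listed at 0 in the treated mice, all from 2 cells. With no filter on low counts this gave a log2 fold of 2.66 ± 0.51 (edgeR adjusted p = 2.9e-04) in a fit where 0.148% of all genes were called. In monocytes or macrophages it was 33.2 CPM and listed at 0 untreated and listed at 0 and 9.45 CPM treated, from 3 cells. T cells had 1.50 and 3.06 CPM untreated and 3.61 and 0.909 CPM treated. Arg1 in all kept cells together was 2.26 and 1.61 CPM untreated and 2.33 and 0.515 CPM treated, with overlapping groups and a log2 fold of -0.16 ± 0.72 (edgeR adjusted p = 0.951).

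Nos2 had 165 counts in 45 cells, and neutrophils held 109 of them. Its level in neutrophils was 1.29 and 1.76 CPM untreated and 1.52 and 0.470 CPM treated. The groups overlapped, with a log2 fold of -0.60 ± 0.60 (edgeR adjusted p = 0.992). Monocytes or macrophages had 2.37 and 17.2 CPM untreated and 0 in both treated mice, from 14 counts in 3 cells. In the sum of all kept cells Nos2 was 0.827 and 0.888 CPM against 0.998 and 0.240 CPM, and the fold was -0.20 ± 0.70 (edgeR adjusted p = 0.938). Each range overlapped the next in the order of classes, while that of neutrophils lay above those of microglia (0 to 0.227 CPM) and of NK, erythroid and plasmacytoid dendritic cells, all at 0.

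Most of the Arg1 and Nos2 signal lay in cells removed as likely doublets. These 1248 cells held 79.3% of the Arg1 counts and 51.0% of the Nos2 counts of all single-hashtag cells. The removed cells held 21.8% of Il4i1, 20.7% of Ch25h, 16.8% of Sod2, 15.3% of Acod1 and 7.56% of Arg2 counts. They were deeper, with a median of 17086 counts against 8346 in kept cells. Arg1 was 60.0 CPM in them against 1.67 CPM in kept cells, and Nos2 6.80 against 0.737 CPM. Il4i1 was 13.4 against 5.72 CPM, Ch25h 2.73 against 1.21 CPM and Sod2 87.2 against 50.5 CPM. Acod1 was 64.0 against 40.5 CPM, while Arg2 was lower in the removed cells, at 27.0 against 38.7 CPM. Removal took 8.43% and 8.13% of the untreated and 3.38% and 4.95% of the treated mice's cells.

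With the calls kept, the monocyte or macrophage class grew from 359 to 495 cells, 145 of them called doublets (166, 65, 108 and 156 cells by mouse). Arg1 was then 488 and 156 CPM untreated and 140.3 and 203 CPM treated. Nos2 was 42.3 and 24.9 CPM untreated and 3.41 and 37.7 CPM treated, and Acod1 was 228 and 118 CPM untreated and 17.7 and 158 CPM treated. Inhibitor replicate 1 was the lowest mouse for these 3 genes, and the groups overlapped for each of them. In every other mouse Acod1 then lay above the 71.9 to 102 CPM of neutrophils with likely doublets removed. The log2 folds were -0.95 ± 0.48 for Arg1 (edgeR adjusted p = 1.00), -0.74 ± 0.85 for Nos2 (edgeR adjusted p = 1.00) and -1.01 ± 0.77 for Acod1. In this comparison 0% of 10601 genes were called. These folds rested on single mice. Without inhibitor replicate 2 the Nos2 fold was -3.34 ± 0.89 (edgeR adjusted p = 0.0151, with 1.6% of all genes called), and without inhibitor replicate 1 it turned to 0.13 ± 0.61 (edgeR adjusted p = 1.00). The Arg1 fold went from -1.52 without untreated replicate 2 to 0.09 without untreated replicate 1, and the Acod1 fold from -3.35 without inhibitor replicate 2 to -0.16 without inhibitor replicate 1. With the calls kept, Arg1 and Nos2 were at 0 in the conventional dendritic cells of every mouse.

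The 145 called and the 350 other cells of this enlarged class differed in more than these genes. Arg1 was 647 CPM in the called cells (31 cells with a count) and 48.7 CPM in the others (5 cells). Acod1 was 309.7 against 40.1 CPM, Nos2 63.7 against 8.07 CPM and Sod2 423 against 142 CPM. The median count per cell was 11399 against 5064. Summed markers of monocytes or macrophages were 18387 against 26176 CPM, of conventional dendritic cells 24331 against 4583 CPM, of neutrophils 25256 against 9867 CPM, of microglia 4687 against 1931 CPM and of T cells 1809 against 562 CPM. The called cells thus held more counts per cell and more counts of the marker lists of 4 other classes. These lists are not exclusive, since Chil3 stood in both the neutrophil and the monocyte or macrophage list. Whether the called cells were doublets or large activated cells was not tested.

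**Figure D4:**
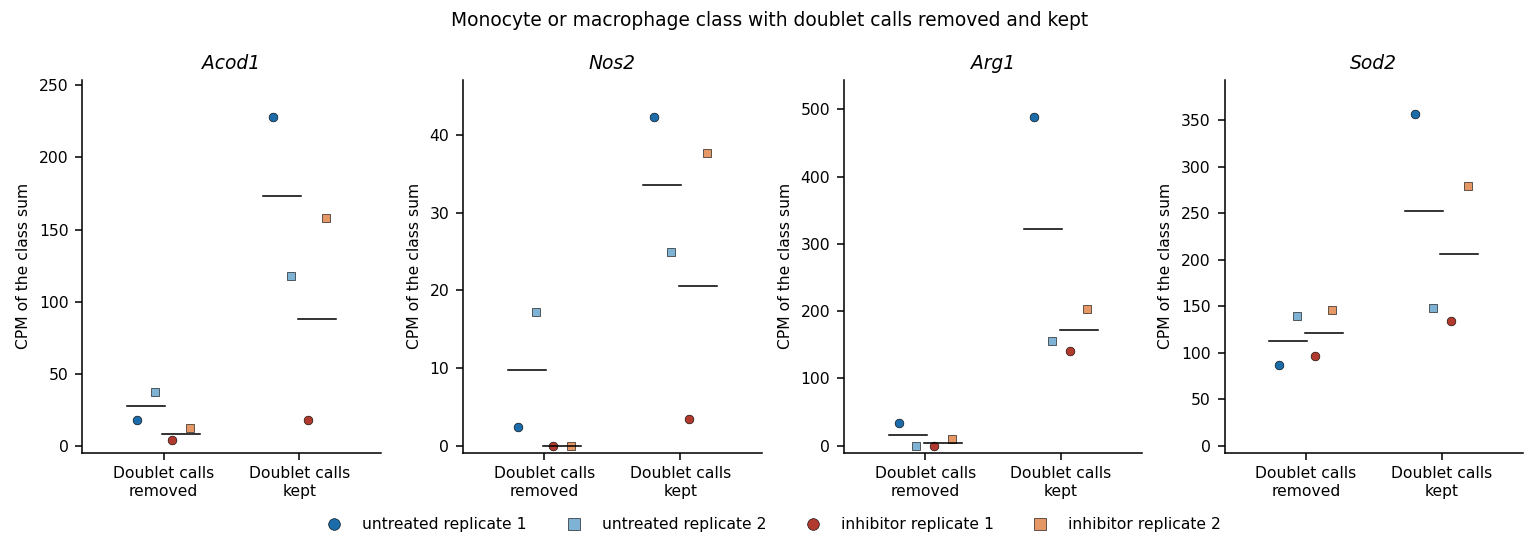
Acod1, Nos2, Arg1 and Sod2 in the monocyte or macrophage class (vertical axes, CPM of the class sum) with likely doublets removed and kept. Points are mice and bars group means. Keeping the calls took Arg1 from at most 33.2 CPM to 140.3 to 488 CPM, and with the calls kept inhibitor replicate 1 was lowest for all 4 genes.

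Il4i1 marked dendritic and B cells. Conventional dendritic cells had 48.1 and 82.8 CPM untreated and 30.1 and 112 CPM treated, or 68.2 ± 36.4 (SD, n = 4). The treated mice were the lowest and the highest, and the log2 fold was 0.16 ± 0.54. B lineage cells followed at 43.2 ± 33.4 CPM, with an overlapping range. Microglia had 7.27 ± 2.49 CPM, below the range of B lineage cells, and every other class averaged 1.91 CPM or less. Neutrophils, which held most Acod1 and Arg2, had 0 to 0.224 CPM of Il4i1. After thinning, 7.22% of conventional dendritic cells held an Il4i1 count (10.5% unthinned, median 15139 counts) against 0.150% of T cells (0.269% unthinned, median 7210 counts).

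The dendritic signal came largely from a small group of cells. Of 485 conventional dendritic cells, 66 held a count of Ccr7 or Fscn1, genes of mature migrating dendritic cells (a split made after the data were seen). Their Il4i1 level was 346 and 767 CPM untreated and 178 and 523 CPM treated, and the groups overlapped. In the other 419 cells it was 9.06 and 21.7 CPM untreated and 0 and 8.96 CPM treated. The 66 cells numbered 18, 13, 7 and 28 in the 4 mice and held 630 counts against 96 in the rest. With doublet calls kept, 63 cells formed an unnamed cluster of their own led by Ccl22, Cacnb3, Fscn1 and Ccr7, 30 of them called doublets. There Il4i1 was 494, 1043, 1202 and 766 CPM in the 4 mice, the third value from 2 cells, and the other conventional dendritic cells averaged 17.6 CPM.

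In B lineage cells Il4i1 was 62.9 and 80.0 CPM untreated and 14.8 and 15.2 CPM treated, with no overlap and a log2 fold of -2.31 ± 0.37. It was confined to cluster 14 of the 3 B lineage clusters. That cluster was led by Ms4a1 and Fcmr, genes of mature B cells, and had 100.5 and 90.8 CPM untreated and 57.8 and 40.6 CPM treated. The groups did not overlap there either, and the fold was -0.91 ± 0.39. The make-up of such cells also differed between mice. A finer clustering (resolution 2.0) gave a cluster led by Ighd and Fcmr, with 63, 158, 38 and 61 cells of the 4 mice. It also gave a cluster led by Ms4a1 and Iglc1, with 27, 23, 61 and 30 cells. The part of this in the fold was not tested. Clusters 17 and 21, led by Vpreb3 and holding Rag1 or Igll1, genes of B cell precursors, had 0 in every mouse. Cluster 14 made up 63.4% and 84.2% of the B lineage cells of the untreated and 30.6% and 42.4% of those of the treated mice.

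Microglia had 4.76 and 5.56 CPM of Il4i1 untreated and 9.87 and 8.90 CPM treated, from 143 counts. The treated mice were higher, with a log2 fold of 0.83 ± 0.45. In the microglia without T cell receptor complex counts the values were 4.96 and 24.4 CPM against 11.6 and 0 CPM, from 34 counts, and the fold was -1.27 ± 1.34. The genes most like Il4i1 over the 60 sums were H2-DMb2, a part of the class II loading machinery, with r = 0.87, Gm10553 with r = 0.83 and AC125149.3 with r = 0.81. All 3 were highest in B lineage cells. In the sum of all classes Il4i1 was 6.50 and 7.25 CPM untreated and 1.84 and 7.78 CPM treated, with a fold of -0.38 ± 0.56 that turned to 0.26 without inhibitor replicate 1.

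**Figure D5:**
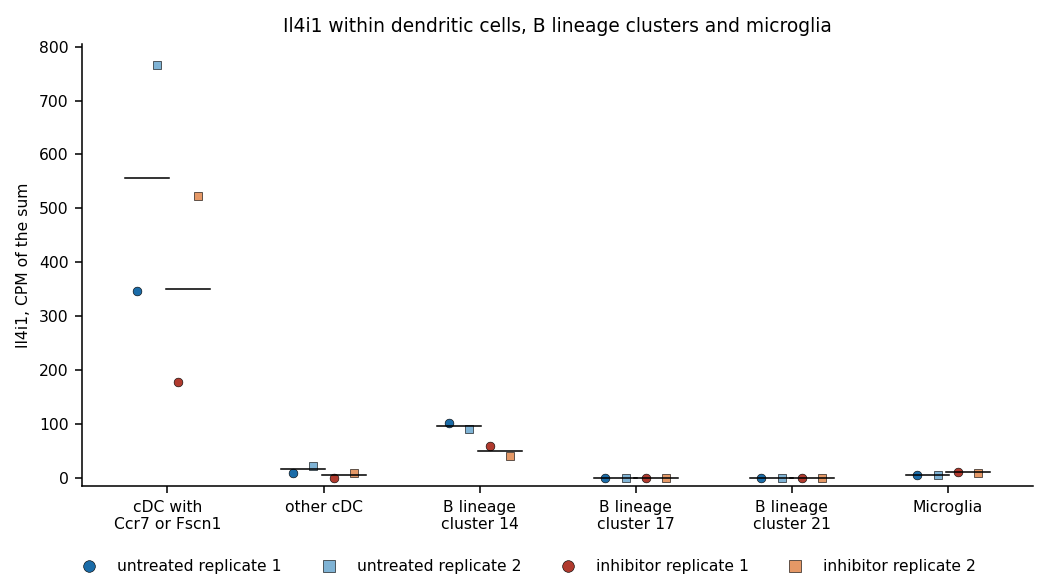
Il4i1 (vertical axis, CPM of the sum) in conventional dendritic cells (cDC) with and without a count of Ccr7 or Fscn1, in the 3 B lineage clusters and in microglia. Points are mice and bars group means. The Ccr7 or Fscn1 cells had 178 to 767 CPM, cluster 14 had 40.6 to 100.5 CPM, and clusters 17 and 21 were at 0.

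Sod2 was broadly present. Monocytes or macrophages had the highest level, 86.7 and 139 CPM untreated and 96.6 and 146 CPM treated. Conventional dendritic cells had 63.8 and 93.1 CPM untreated and 115 and 78.1 CPM treated, and progenitors averaged 72.6 ± 18.6 CPM (SD, n = 4). NK cells averaged 68.7 ± 15.2 CPM, T cells 56.2 ± 7.81 CPM, microglia 55.4 ± 2.00 CPM and plasmacytoid dendritic cells 53.3 ± 6.95 CPM. Neutrophils were lowest at 36.8 ± 3.17 CPM, with a range of 32.6 to 39.8 CPM. Every class overlapped the next in this order. The 4 mice of the neutrophil class lay below the 4 mice of microglia, T cells, conventional dendritic cells and monocytes or macrophages.

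Sod2 did not separate the groups in 7 of the 9 classes tested. A separation of 2 against 2 mice has p = 0.333 in an exact permutation test, and its share over all genes was not counted. In neutrophils it was 36.1 and 38.5 CPM untreated and 32.6 and 39.8 CPM treated, and the log2 fold was -0.07 ± 0.16 (edgeR adjusted p = 0.994). In microglia it was 53.1 and 54.3 CPM against 56.7 and 57.4 CPM, a small separation with a fold of 0.05 ± 0.22 (edgeR adjusted p = 0.975). In the microglia without T cell receptor complex counts it was 44.7 and 36.6 CPM against 97.8 and 55.5 CPM, with a fold of 0.87 ± 0.43 (edgeR adjusted p = 0.998). In unnamed cluster 10, led by Xcl1 and Klra7 and holding T and NK cell markers, it was 38.7 and 70.5 CPM against 95.6 and 98.8 CPM. The fold there was 0.89 ± 0.37, with an unadjusted p of 0.0377 (edgeR adjusted p = 0.995). Over all kept cells Sod2 was 47.5 and 55.5 CPM untreated and 46.3 and 52.9 CPM treated. The fold was 0.14 ± 0.16 (edgeR adjusted p = 0.770) and turned to -0.05 with plain CPM scaling, where the median gene moved from -0.03 to -0.22. The genes most like Sod2 were Pacs2 and Elmo2 with r = 0.62 and Tyk2, a Janus kinase, with r = 0.61, lower values than those found for Acod1, Arg2 and Il4i1.

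Ch25h was largely a microglial transcript. Microglia held 200 of its 272 counts, at 6.46 and 13.4 CPM untreated and 2.16 and 15.7 CPM treated. The treated mice were again the lowest and the highest, and the log2 fold was -0.11 ± 0.74 (edgeR adjusted p = 0.986). Progenitors averaged 1.59 ± 2.59 CPM (SD, n = 4), every other class was at 0.895 CPM or less, and the range of progenitors overlapped that of microglia. Over all kept cells Ch25h was 1.39 and 1.61 CPM untreated and 0.274 and 1.70 CPM treated (log2 fold -0.48 ± 0.70, edgeR adjusted p = 0.830). Nos2 and Ch25h did not reach the 20 CPM set for naming similar genes. For Arg1 the highest r were 0.51 for Dkk3 and 0.50 for Enah and Nav1.

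Of the 5 genes tested, 19 combinations of gene and class passed the filter on low counts: Nos2 in 1 class, Arg1 in 2, Arg2 in 5, Sod2 in 9 and Ch25h in 2. In edgeR's test 0 of 19 were called, and 1 had an unadjusted p under 0.05 (Sod2 in cluster 10). DESeq2 gave 33 combinations an adjusted p, called 0 of them, and 1 had an unadjusted p under 0.05. The background was near 0 too. Of all genes tested, 0.00602% were called in T cells and 0.0109% in monocytes or macrophages, and 0% in each of neutrophils, microglia, conventional and plasmacytoid dendritic cells, NK cells, B lineage cells and cluster 10. The effect in neutrophils was also set against that in microglia, T cells and monocytes or macrophages. Of 13 such differences for the 5 genes 0 were called, and 1 had an unadjusted p under 0.05, Nos2 in monocytes or macrophages against neutrophils (edgeR adjusted p = 1.00). No size is given for it, since both treated mice had 0 counts in the former. In these fits 0%, 0% and 0.0069% of all genes were called.

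Genes around the 7 enzymes were described in 6 lists, in none of which a gene was called in edgeR's test of all kept cells, of neutrophils or of any other class. In all kept cells, superoxide production and antioxidant defence had 18 genes higher and 8 lower of 26 tested, with a median log2 fold of 0.47 against -0.03 over all genes, of which 47.1% were higher. Gsr, glutathione reductase, was 192 and 172 CPM untreated and 446 and 281 CPM treated (1.23 ± 0.32, edgeR adjusted p = 0.487). Of the 26 genes, 11 had an unadjusted p under 0.05, against 2082 of all 21131 genes in this fit. Slc7a11, a cystine carrier, had a fold of 1.05 ± 0.29 and Nqo1, a quinone reductase, 1.40 ± 0.40, both with an edgeR adjusted p of 0.487. Within neutrophils, whose share of cells differed between groups as given above, the same list also had 18 of 26 genes higher. The median was 0.03 against -0.01 over all genes, of which 47.5% were higher. Of the 26 genes, 0 had an unadjusted p under 0.05, against 732 of all 14829 genes in neutrophils. There Srxn1, which repairs peroxiredoxins, had a fold of 1.01 ± 0.46, Prdx1, a peroxiredoxin, -0.38 ± 0.19 and Gclm, a subunit of the enzyme that starts glutathione synthesis, -0.27 ± 0.15 (edgeR adjusted p = 0.992 for each).

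Tryptophan and aromatic amino acid use, the list nearest to Il4i1, had 2 genes higher and 11 lower of 13 tested in all kept cells, with a median of -0.25. Kmo, which hydroxylates kynurenine, was 20.1 and 34.0 CPM untreated and 9.02 and 16.8 CPM treated (-0.90 ± 0.34, edgeR adjusted p = 0.495). Ahr, the aryl hydrocarbon receptor, had a fold of -0.74 ± 0.22 and Tiparp, one of its targets, 0.85 ± 0.28 (edgeR adjusted p = 0.487 for both). The all-cell folds also carry the differences in class shares given above, whose part was not tested. In neutrophils 7 of 11 genes were higher, with a median of 0.08. Tiparp had 0.19 ± 0.11 there and Wars, a tryptophan tRNA ligase, 0.61 ± 0.25 (edgeR adjusted p = 0.992 for both). Arginine, nitric oxide and polyamine metabolism had 14 of 26 genes higher in all kept cells (median 0.06) and 8 of 22 in neutrophils (median -0.04). In neutrophils Oat, which uses the ornithine that arginases make, was 14.1 and 16.2 CPM untreated and 10.7 and 9.31 CPM treated (-0.62 ± 0.19, edgeR adjusted p = 0.992).

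The tricarboxylic acid cycle and targets of itaconate had 14 of 27 genes higher in all kept cells (median 0.00) and 15 of 26 in neutrophils (median 0.03). Keap1, the sensor that itaconate modifies, was 23.4 and 23.0 CPM untreated against 34.4 and 28.9 CPM treated there (0.43 ± 0.15, edgeR adjusted p = 0.992). Slc25a10, a mitochondrial dicarboxylate carrier, had -0.82 ± 0.34 and Sdhd, a subunit of succinate dehydrogenase, -0.30 ± 0.15 (edgeR adjusted p = 0.992 for both). Oxysterol and cholesterol metabolism had 8 of 22 genes higher in all kept cells (median -0.13) and 6 of 18 in neutrophils (median -0.16). Gpr183, the receptor of oxysterols made downstream of Ch25h, had -1.11 ± 0.43 and Lss, lanosterol synthase, -0.87 ± 0.33 in neutrophils (edgeR adjusted p = 0.992 for both). Inducers and transcription factors of the 7 enzymes had 14 of 28 genes higher in all kept cells (median -0.07) and 13 of 26 in neutrophils (median -0.01). Il1b was 232 and 256 CPM untreated and 577 and 364 CPM treated over all kept cells (1.18 ± 0.32), and Cebpb, a factor known to act on Arg1, had 0.94 ± 0.29 (edgeR adjusted p = 0.487 for both). Il4, which induces Arg1 in macrophages, went the other way at -1.42 ± 0.55 (edgeR adjusted p = 0.495), with at most 0.262 CPM in a mouse. The folds of Il1b, Cebpb and Il4 come from sums over all classes, and the share of neutrophils differed between groups as given above. The part of these shares in the folds was not tested.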

How the data were processed

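CD45+ spinal cord cells of 4 mice were measured by single-cell RNA sequencing. The authors deposited 1 table of whole-number counts per gene and cell, not normalized, with the mouse named in each column by its hashtag, per the file headers. Per the submitters' processing notes the build was GRCm38. The sources used here do not give the aligner, the counter, the use of strand, or if counts are molecules or reads. Of 25461 columns, 3943 held more than 1 hashtag and entered no comparison. Cells needed 200 genes (all had at least 500) and at most 20% mitochondrial counts, which removed 1014. The 1248 cells with the most hashtag doublets among their 50 nearest neighbours were removed as likely doublets, a number expected from the hashtag doublets.

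Clustering used 2000 variable genes without the 7 enzymes, 40 principal components and 20 neighbours, followed by Leiden clusters at resolution 1.0 (leidenalg 0.10.2, igraph 0.11.9). A class name needed at least 3 markers, and 50% of those in the table, detected in 25% of the cells. A cluster whose 5 leading genes held a marker of another class and none of its own was not named, a condition set after the data were seen. Of 229 marker genes, 5 had no row. Counts were summed per mouse and class where each mouse had at least 30 cells. The sums passed through filterByExpr and TMM scaling and were tested with edgeR 4.0.16 (R 4.3.3) at an adjusted p under 0.05, after the code was checked on simulated data. DESeq2 1.42.0 was an alternative. Levels are CPM, a scale of 1000000 computed here from the deposited counts. Mice are separate animals per the labels, and pooling on 1 run gave them the same library.

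The 7 genes, the gene lists and the markers were chosen with earlier results of these data known, so they are no independent evidence. Named genes of a list were those past the threshold in any class, and otherwise the 3 with the smallest unadjusted p in all kept cells or neutrophils, of which the text gives some. Genes most like a member were the 3 with the highest r among genes with at least 20 CPM in a class. Alternatives were no filter, another normalization, DESeq2, the replicate number as a block, other cell filters, other clusterings, thinned cells and leaving out each mouse.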

Additional observations from a re-analysis of the deposited data

Results flagged for a closer look

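For 3 genes both treated mice lay above both untreated mice in one named class and below them in another, counting classes with at least 20 counts of the gene. This gave 9 cases. With 2 mice a group, an exact permutation test gives each such separation p = 0.333. The share of all genes that separated in this way was not counted, so the 9 cases are descriptions only. For Acod1 the log2 ratio of the group means was 2.24 in B lineage cells (25 counts), -0.51 in T cells, -1.76 in monocytes or macrophages (58 counts), 0.12 in conventional dendritic cells and 1.19 in erythroid cells (46 counts). For Arg2 it was 2.09 in B lineage cells (41 counts) and -1.45 in microglia (42 counts). Summed neutrophil markers in B lineage cells were 1336 and 2734 CPM untreated and 3742 and 2909 CPM treated, with 1 to 3 of 23 at 0 in a mouse, and their part in the Acod1 and Arg2 values was not tested. For Il4i1 the ratio was 0.86 in microglia and -2.25 in B lineage cells. With likely doublets kept, 5 of the 9 cases overlapped. For Acod1 in B lineage cells both treated mice (6.10 and 5.91 CPM) then lay between the untreated mice (log2 fold -0.34 ± 0.91), and in T cells the values were 4.84 and 3.65 CPM against 4.87 and 4.53 CPM (0.16 ± 0.30). The other cases that overlapped were Acod1 in monocytes or macrophages and in conventional dendritic cells, and Arg2 in microglia. The differences between classes were not tested for Acod1 and Il4i1, whose values chose the set, nor for Arg2 in B lineage cells. For Arg2 in microglia against neutrophils the difference in log2 fold was -1.12 ± 0.59 (SE, edgeR adjusted p = 0.715).

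Several genes also showed signal in columns that entered no comparison, above the level in kept cells of the higher untreated mouse. In the columns with more than 1 hashtag the level was 48.0 CPM for Acod1, 2.21 for Nos2, 18.6 for Arg1, 60.3 for Sod2 and 1.95 for Ch25h. In the cells over the mitochondrial limit it was 66.4 CPM for Acod1, 1.68 for Nos2 and 7.38 for Arg1. These columns had a median of 14113 and 4630 counts against 8346 in kept cells.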

How the results depend on the processing

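Over all kept cells, equal class shares gave log2 differences of 0.07 for Acod1, -1.67 for Nos2, 1.09 for Arg1 and -0.22 for Arg2 (-1.64 for Arg1 without inhibitor replicate 1), and thinned cells gave 1.42 for Acod1. Plain CPM scaling, added after the data were seen, gave -0.05 for Sod2. Leaving out 1 mouse gave 0.82 to 1.34 for Acod1, -1.75 to 0.55 for Nos2, -1.82 to 0.60 for Arg1, 0.47 to 1.44 for Arg2, -1.58 to 0.26 for Il4i1 and -2.12 to 0.26 for Ch25h, so the directions of Nos2, Arg1, Il4i1 and Ch25h each turned without some mouse. In neutrophils the range was -0.12 to 0.36 for Acod1, -1.70 to -0.05 for Nos2, -0.54 to 0.13 for Arg2 and -0.23 to 0.08 for Sod2. Sod2 was 0.27 in the Mmp8 and 0.16 in the Fcnb cluster, and Acod1 was -1.60 in the latter. A lone mouse left in a group is assumed to vary like the others.

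In single classes Sod2 turned to -0.06 (B lineage), -0.04 (microglia) and 0.16 (plasmacytoid dendritic cells) with thinned cells, to 0.01 in NK cells by RLE, no filter and DESeq2, to 0.05 in plasmacytoid dendritic cells with the other setting of glmQLFit, and to -0.04 (conventional dendritic cells), -0.07 (microglia) and -0.33 (monocytes or macrophages) with doublet calls kept, where Ch25h in microglia was 0.41. Leaving out 1 mouse turned Sod2 in NK cells (-0.38 to 0.34), conventional dendritic cells (-0.01 to 0.57), monocytes or macrophages (-0.25 to 0.53) and plasmacytoid dendritic cells (-0.24 to 0.13), and gave 0.00 to 0.08 in microglia. It turned Arg1 in T cells (-1.32 to 0.64) and conventional dendritic cells (-7.44 to 9.80), Arg2 in T cells (-0.27 to 0.39) and monocytes or macrophages (-1.57 to 1.62), and Ch25h in T cells (-0.72 to 3.06) and microglia (-2.21 to 0.66). Arg1 in conventional dendritic cells was -0.19 with thinned cells and 2.66 ± 0.51 with no filter on low counts (edgeR adjusted p = 2.9e-04, the 1 member called), and it rests on 2 cells.

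The count of genes called depended on the fit. Over all kept cells DESeq2 called 453, and leaving out 1 mouse gave 0 to 1627. In neutrophils DESeq2 called 8, no filter 44 and leaving out 1 mouse 0 to 661. Summed over the class fits, against 2 genes as reported, DESeq2 called 225, no filter 926, thinned cells 64 and doublet calls kept 0. The 7 enzymes among the variable genes, the 10% mitochondrial limit, the other setting of glmQLFit and plain CPM each gave 1, and leaving out 1 mouse gave 53 to 1736. Member calls were 0 to 1 when a mouse was left out. The cause was not tested. With the replicate number as a block 2 genes were called in neutrophils and 162 over the classes, and with the numbers crossed 95. The numbers pair nothing in the labels, and deviations of same-numbered mice had r = 0.05 in all cells and -0.11 in neutrophils. Of the levels, the mean over cells gave 130.0 CPM for Acod1 and 129 for Arg2 in neutrophils. Doublet calls kept gave 27.1 for Nos2 and 229.5 for Sod2 in monocytes or macrophages and 17.6 for Il4i1 in conventional dendritic cells. With 2 mice a group and few counts, folds of Nos2, Arg1 and Ch25h were not precise at this depth.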

Other observations

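Some of the 6 lists around the 7 enzymes were uneven in B lineage cells and microglia, with no gene called in edgeR's test, and others were even. In B lineage cells, where Il4i1 was lower in both treated mice, inducers and transcription factors had 3 genes higher and 21 lower of 24 tested, with a median log2 fold of -0.36 against 0.00 over all genes, of which 49.8% were higher. Tryptophan and aromatic amino acid use had 1 of 10 genes higher there (median -0.35), and the tricarboxylic acid cycle and targets of itaconate had 19 of 26 higher (median 0.24), while superoxide production and antioxidant defence had 11 of 22 higher (median 0.00). Cluster 14, the mature cells, made up 63.4% and 84.2% of B lineage cells in the untreated and 30.6% and 42.4% in the treated mice, and the part of this in the medians was not tested. In microglia inducers had 20 of 26 genes higher (median 0.12 against 0.02 over all genes, of which 52.3% were higher), and superoxide production and antioxidant defence had 8 of 25 higher (median -0.14), while arginine, nitric oxide and polyamine metabolism had 12 of 22 higher (median 0.05). These pairs of list and class were picked after their values were seen.

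Within T cells the highest mean of Acod1 was in the regulatory cluster led by Foxp3, at 7.21 and 7.98 CPM without and 1.33 and 10.2 CPM with the inhibitor, and the treated mice were again the lowest and the highest. Summed neutrophil markers in all T cells were 1135 and 1085 CPM untreated and 2681 and 1131 CPM treated, and their part in these values was not tested.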
